A study of Mus musculus with 39 samples.

Results

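The 10 genes followed here in mouse liver are used as marks of recruited and lipid-associated macrophages: Trem2, Itgax, Ccr2, Cd9, Cd63, Gpnmb, Spp1, Mmp12, Lgals3 and Chil3. They were chosen by name, and each matched 1 of the 55416 gene identifiers in the count table. RNA came from snap-frozen whole livers of 39 male mice in 4 groups: wildtype on chow (n = 5), CD163 knockout on chow (n = 4), wildtype on Western diet (n = 15) and CD163 knockout on Western diet (n = 15). Knockout and wildtype mice were littermates from heterozygous C57BL/6NTac (CD163tm1(KOMP)Vlcg) parents. Feeding began at 6 weeks of age and lasted 8 weeks, either with Western diet plus fructose in the drinking water or with Altromin maintenance chow plus normal water. The diet groups therefore differ in the fructose water as well as in the solid diet. CD163, a scavenger receptor for haemoglobin bound to haptoglobin, is made by macrophages. Livers are named by group and replicate letter, with WT for wildtype and KO for knockout, as in KO Western F.

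Macrophages of a healthy liver are mostly Kupffer cells, which settle before birth and renew themselves. When the liver takes up much fat, monocytes that carry the chemokine receptor CCR2 can enter from blood and become macrophages, and some of these take on a lipid-associated state that is found around fatty hepatocytes and scars. TREM2, a receptor for lipids and lipoproteins that signals through the adaptor TYROBP, marks that state together with GPNMB, CD9, osteopontin and lysosomal genes. Several of the 10 genes are also made by other liver cells: Spp1 by bile duct cells, Cd9 and Cd63 by many cell types, Itgax by dendritic cells and Lgals3 by bile duct and activated stellate cells. In whole tissue, fewer cells of a type and less RNA per cell cannot be told apart.

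Levels are given as CPM, counts scaled to a common library size. Library totals ran from 8578865 to 30438808 counts, with a median of 14573193, and the deepest library was KO Western F. Cd163 itself followed the genotype labels, at 8.74 ± 3.89 CPM in wildtype and 0.601 ± 0.138 in knockout on chow (SD, n = 5 and 4, exact 2-sided permutation p = 0.01587). On Western diet it was 8.31 ± 4.27 in wildtype and 0.355 ± 0.209 in knockout (SD, n = 15 each, permutation p = 2e-05, the smallest that the permutations can give). Markers of hepatocytes summed to 44510 to 84330 CPM over all 39 livers. In 4 libraries the diet genes stood with the other diet. On a scale where 0 is the chow mean and 1 the Western diet mean of 547 diet genes, picked in the other 35 livers and holding no member, WT chow A lay at 0.920 and KO chow D at 0.989. WT Western A lay at 0.227 and KO Western M at 0.200, while the other chow livers lay between -0.09 and 0.118 and the other Western diet livers between 0.789 and 1.27. Counts of WT Western L and M differed least of all pairs, with a chi-square per gene of 3.77. The second least was 9.63 and the median pair 56.76. A value of 3.77 is above sampling noise, but this cannot tell whether L and M are separate mice. Both were kept as labelled, and summing them left every direction and call of the members as it was. Diet results are therefore given with and without the 4 libraries, and any result that hung on 1 liver is given without it.

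The strongest pattern among the 10 genes was not a group but 1 liver. In KO Western F, 7 of the 10 genes had their highest level of all 39 livers, and each of those 7 was at least 2 times the next highest liver. For comparison, KO Western F was the highest liver for 7.78% of the 15296 genes tested, and at least 2 times the next for 0.32% of them. Spp1, Cd9 and Chil3 were not highest there. Promoters of 4 members are printed because 3 of these genes, Gpnmb, Mmp12 and Itgax, had the largest excess over the next liver and the fourth, Trem2, is the receptor that names the state. Each run is the 250 bases before the start site, from RefSeq on GRCm38.p6, at chr6:49036268-49036517 (Gpnmb), chr9:7344147-7344396 (Mmp12), chr7:128129300-128129549 (Itgax) and chr17:48346151-48346400 (Trem2), all on the plus strand. Capitals mark matches, on either strand, to the AP-1 site TGANTCA. Capitals also mark GAGGAA in either orientation, which is the core of the site of the myeloid factor PU.1.
Gpnmb: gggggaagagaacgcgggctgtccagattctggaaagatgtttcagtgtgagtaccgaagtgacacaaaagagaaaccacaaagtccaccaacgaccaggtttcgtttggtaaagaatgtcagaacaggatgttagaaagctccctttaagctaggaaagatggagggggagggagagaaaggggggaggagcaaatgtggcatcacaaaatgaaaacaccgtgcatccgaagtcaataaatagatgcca
Mmp12: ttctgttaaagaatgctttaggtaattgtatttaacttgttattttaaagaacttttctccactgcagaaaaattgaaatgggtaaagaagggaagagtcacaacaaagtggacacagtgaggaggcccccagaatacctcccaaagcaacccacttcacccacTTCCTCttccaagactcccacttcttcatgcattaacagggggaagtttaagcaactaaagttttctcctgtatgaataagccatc
Itgax: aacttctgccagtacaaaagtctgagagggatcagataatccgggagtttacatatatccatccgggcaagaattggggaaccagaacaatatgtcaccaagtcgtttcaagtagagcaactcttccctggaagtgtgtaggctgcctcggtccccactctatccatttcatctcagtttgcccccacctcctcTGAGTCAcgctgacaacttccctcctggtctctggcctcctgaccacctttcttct
Trem2: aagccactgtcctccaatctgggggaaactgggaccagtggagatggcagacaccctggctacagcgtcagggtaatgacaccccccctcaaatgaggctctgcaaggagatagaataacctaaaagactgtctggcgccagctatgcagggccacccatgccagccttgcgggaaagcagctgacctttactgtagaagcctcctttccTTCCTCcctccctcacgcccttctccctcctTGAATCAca

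All 10 members had a promoter in the RefSeq table, 12 promoters in all since Spp1 and Mmp12 have 2 start sites each. Both strands were searched for 3 motifs, and no match overlapped another. TGANTCA was found in 3 of the 12, those of Itgax, Trem2 and the second start of Mmp12, against 6.75% of 32851 promoters of the same length. GAGGAA was found in 4 of the 12, those of Trem2, Mmp12, Spp1 and Cd63, against 23.25% of all. CACGTG, the E-box read by lysosomal regulators of the MiT family, was in 0 of the 12 against 6.02% of all. The window of Gpnmb held no match. A match is a run of letters in this window and was not tested as a site.

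Gpnmb, a glycoprotein of lysosomes and of the surface of lipid-loaded macrophages, was nearly silent in the other livers. It reached 21.2 CPM in KO Western F (747 counts, exact Poisson 95% interval 19.7 to 22.7). The next highest liver, KO Western A, had 1.12 CPM, and the median of the other 14 KO Western livers was 0.128. Its level was 0.141 to 0.677 CPM in WT chow, 0 to 0.647 in KO chow and 0 to 0.396 in WT Western livers. Gpnmb therefore separated KO Western F from the other 38 livers by 18.8 times, the widest ratio among the members.

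Mmp12, the macrophage elastase that cleaves elastin and other matrix, showed the same shape. It stood at 16.0 CPM in KO Western F (564 counts, interval 14.7 to 17.4) against 1.32 in the next liver, KO Western A, and a median of 0.431 in the other 14 KO Western livers. On the log2 scale its gap to the next liver ranked 1 among the 15296 genes tested. That set leaves out genes too low in most livers to be tested, Gpnmb among them. Itgax, the CD11c integrin of dendritic cells and recruited macrophages, was at 11.8 CPM against 2.50 in the next, WT chow E, and a median of 1.27 in the other 14. That gap ranked 3.

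Lgals3, the galectin of phagocytes, was at 22.9 CPM in KO Western F (807 counts). The next liver, KO Western G, had 7.05 CPM and the median of the other 14 was 4.08. Cd63, a tetraspanin of late endosomes, was at 24.0 CPM against 10.3 in WT Western H and a median of 6.15. Trem2 was at 11.5 CPM (interval 10.5 to 12.7) against 5.28 in KO Western H and a median of 1.17. Ccr2, the receptor that brings monocytes from marrow and blood to tissue, was at 9.24 CPM against 4.06 in WT chow A and a median of 1.57. The excess in KO Western F thus covered receptors, a protease, a lectin and endosomal proteins alike.

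**Figure D1:**
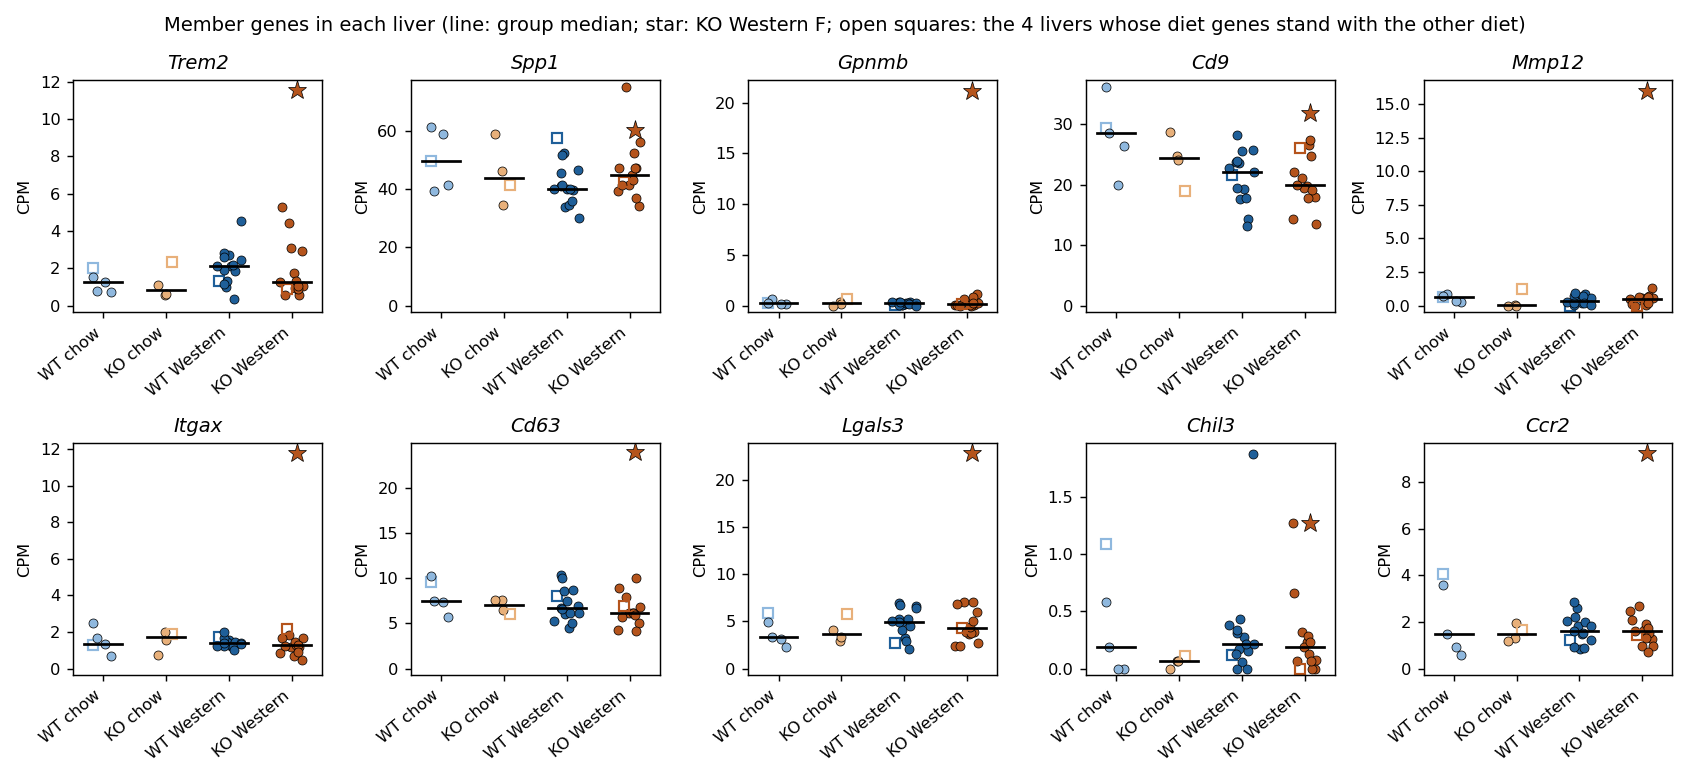
Each panel plots 1 gene in the 39 livers, with CPM on a linear axis, points spread sideways within the 4 groups, and a line at the group median. The star is KO Western F, the highest point for 7 genes, for example 21.2 CPM for Gpnmb and 16.0 for Mmp12. Open squares are the 4 livers that stood with the other diet.

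The remaining members were high but not apart in KO Western F. Spp1, which encodes osteopontin, was at 60.2 CPM and ranked 3 of 39, behind KO Western G at 75.2 and WT chow E at 61.3. Cd9, a tetraspanin of the cell surface, was at 31.7 CPM and ranked 2 behind WT chow E at 36.1. Chil3, the chitinase-like protein of monocytes and alternatively activated macrophages, was at 1.28 CPM (45 counts) and ranked 2 behind WT Western G at 1.88. A close relative, Chil4, could share reads with Chil3. Chil4 was at 0 in KO Western F, which does not tell whether reads were shared.

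The knockout label of KO Western F held, with Cd163 at 0.34 CPM (12 counts) inside the knockout range. Its place on the diet scale was 0.982, among the other Western diet livers.

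**Figure D2:**
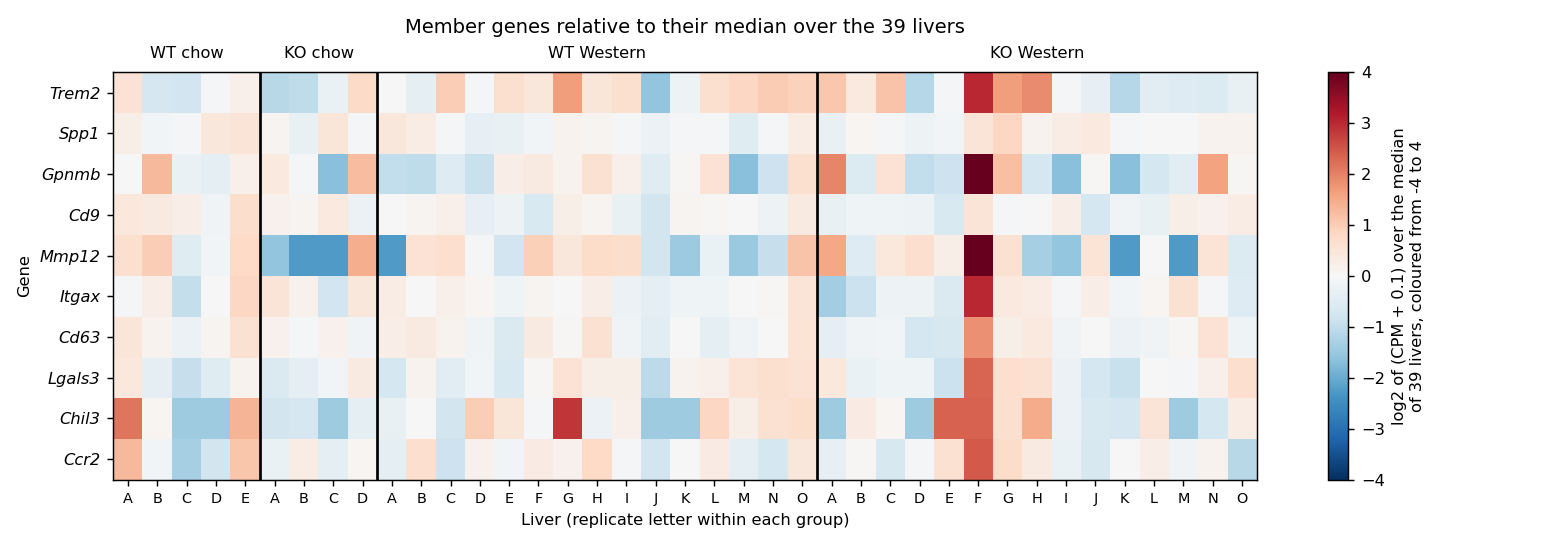
Rows are the 10 genes and columns the 39 livers by group and letter. Colour is log2 of (CPM + 0.1) over (the gene's median + 0.1), limited to -4 and 4. The column of KO Western F is red in all 10 rows, palest for Spp1 and Cd9.

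Related genes were read in KO Western F from lists of known function, and the genes named from them here were picked after their values were seen. Of 20 genes of recruited monocytes and macrophages, 12 were highest of 39 there, against 7.78% of all tested genes. Ms4a7, a membrane protein of monocyte-derived macrophages, was at 3.06 CPM against 0.882 in the next liver. Cx3cr1, the fractalkine receptor of monocytes, was at 7.14 against 4.58. Ly6c2, a mark of inflammatory monocytes, was at 1.33 against 1.06. Their sum did not stand out, at 1269 CPM and rank 26 of 39. Fn1, the gene of fibronectin, which hepatocytes also make, gave 914 CPM of that sum and was at rank 32 of 39.

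Of 22 other lipid-associated macrophage genes, 8 were highest in KO Western F. Capg, an actin-capping protein of macrophages, was at 10.7 CPM against 4.19, and Ctss, a lysosomal protease, at 82.7 against 54.3. Cd68, a lysosomal glycoprotein of macrophages, was at 21.9 against 15.6. Among 8 genes of TREM2 signalling and its lipid ligands, Tyrobp, Syk and Plcg2, the adaptor, kinase and phospholipase below the receptor, were highest there. Tyrobp was at 25.1 CPM against 18.2 in WT Western G. Of the 4 ligands of CCR2, Ccl7 was highest at 2.69 CPM, and Ccl12 was listed at 0.

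Markers of other cells moved with this liver. All 11 markers of stellate cells and fibroblasts were above the median of the other 14 KO Western livers and 8 were the highest of 39. Their sum was 832 CPM in KO Western F, against 208 to 459 in the other KO Western livers, 232 to 496 in WT Western, 268 to 416.7 in WT chow and 269 to 356 in KO chow. Col1a1, the main chain of fibrous collagen, was at 145 CPM against 59.0 in the next liver, and Col3a1 at 212 against 94.5. Timp1, the inhibitor of matrix proteases made by activated stellate cells, was at 2.58 against 0.797. No marker of the list was at 0 in KO Western F.

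Dendritic cell markers summed to 49.3 CPM in KO Western F, rank 1 of 39, with 5 of 9 highest. The sum was at most 34.1 in the other KO Western livers, 36.4 in WT Western, 32.2 in WT chow and 34.5 in KO chow. Kupffer cell markers summed to 1044 CPM, rank 9, with 5 of 12 highest, Marco and Cd5l among them. Other groups ranged from 747 to 976 CPM in WT chow, 713 to 1059 in KO chow, 642 to 1286 in WT Western and 664 to 1174 in the other KO Western livers. T and NK cell markers summed to 9.98 CPM, rank 13, with 4 of 10 highest. Neutrophil markers summed to 80.6 CPM, rank 9, with 0 of 11 highest, and Lcn2 alone gave 67.5 CPM of that sum. Bile duct, B cell and hepatocyte markers had 0 of 8, 0 of 6 and 0 of 8 highest, at ranks 16, 18 and 30, and erythroid markers 0 of 7 at rank 36. The erythroid sum was 96.1 CPM and is mostly a sum of Alas2. Group means of Alas2 were 89.0 to 121 CPM, against 2.78 to 27.6 for the globin Hbb-bs. None of the lists in this paragraph had a gene at 0 in KO Western F. What part the other cell types had in the excess of the members was not tested.

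**Figure D3:**
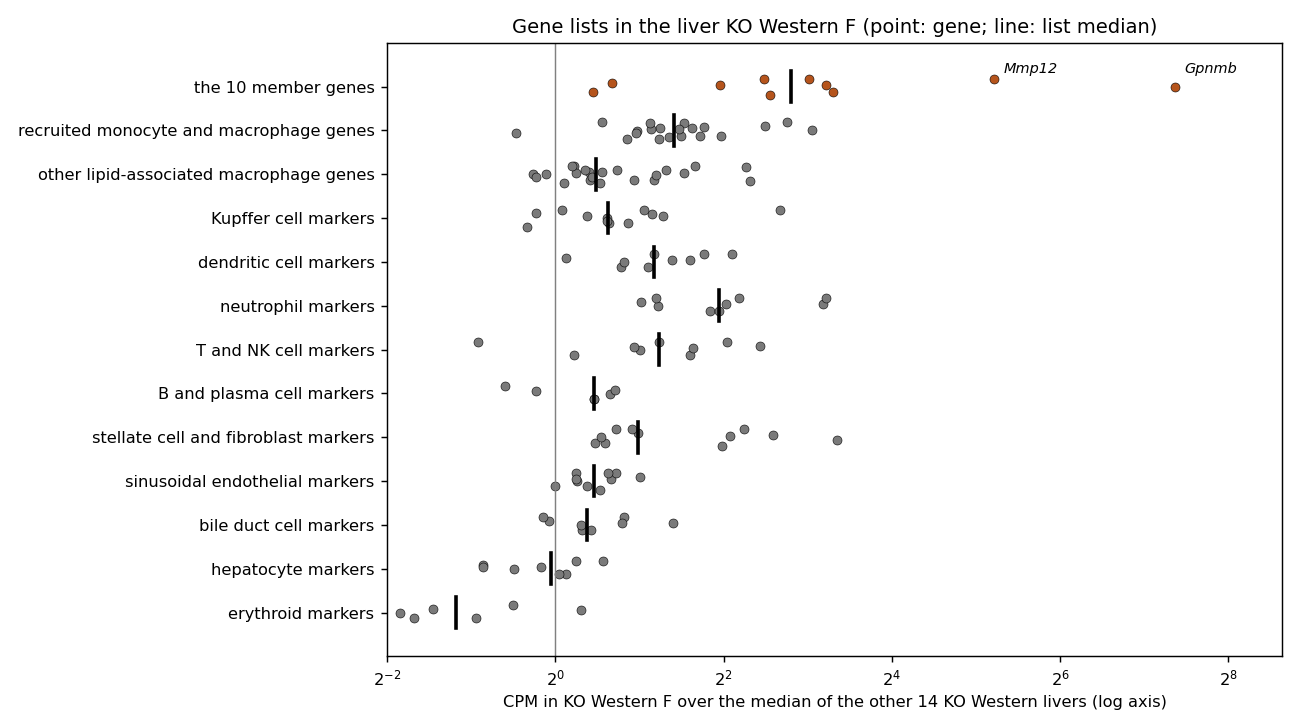
Each point is 1 gene, placed by its CPM in KO Western F over the median of the other 14 KO Western livers on a log axis, with a line at each list's median. The members have a median ratio of 6.99, the neutrophil markers 3.86, the recruited monocyte genes 2.66, the stellate markers 1.98 and the hepatocyte markers 0.962. The related lists of 8 genes or fewer on the members' ligands, receptors and families are not drawn, and of these the 2 CCR2 ligands with a ratio, Ccl2 and Ccl7, have a higher median, 13.3. Genes whose median in the other livers is 0 are not drawn.

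Loss of CD163 on Western diet gave no called member, and the signs of most fitted differences hung on KO Western F. With all 39 livers, 0 of the 9 members that passed the filter on low counts were called in edgeR's quasi-likelihood test, where 0.00654% of 15296 genes were called, that is Cd163 alone. At an unadjusted p under 0.05 stood 1 member, Mmp12, and DESeq2 called 0 as well, with 0.0196% of genes called and 0 members at an unadjusted p under 0.05. DESeq2 replaced the counts of Mmp12 and Itgax in KO Western F as outlying. Gpnmb was the member that failed the filter.

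Mmp12 had the largest fitted difference, 1.87 on the log2 scale higher in knockout (SE 0.67, p = 0.008009, adjusted p = 0.9433 in edgeR). Group levels were 0 to 0.961 CPM in WT Western livers, with a median of 0.362. In KO Western livers they were 0 to 16.0, with a median of 0.477. Without KO Western F the difference was -0.03 (SE 0.48), and the groups overlapped over nearly their whole range. Gpnmb, tested in all 39 livers only without the filter, differed by 3.20 log2 units (adjusted p = 0.675), and without KO Western F its mean was 0.289 ± 0.347 CPM (SD, n = 14) against 0.2 ± 0.134 in wildtype (SD, n = 15).

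Trem2 ranged from 0.38 to 4.51 CPM in WT Western livers, with a median of 2.12, and from 0.556 to 11.5 in KO Western livers, with a median of 1.27. Knockout livers therefore held both the highest values and the lower median. The fitted difference was 0.34 log2 units (SE 0.36) with KO Western F and -0.15 (SE 0.31) without it. The sign turned in the same way for Itgax (0.56 to -0.14), Ccr2 (0.38 to -0.076), Lgals3 (0.29 to -0.088) and Cd63 (0.12 to -0.14). That of Cd9 turned too (0.015 to -0.041), but its difference was near 0 and turned with any 1 of 9 livers left out. All 9 tested members were positive with KO Western F, with a median of 0.29 against 0.0091 for all tested genes. Without it 0 members were called (0.00658% of genes), and 1 of the 8 that still passed the filter was positive, with a median of -0.082 against 0.00055 for all tested genes.

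Spp1 was that member. It was 47.3 ± 10.4 CPM in KO Western and 42.0 ± 7.57 in WT Western livers (SD, n = 15 each). The log2 difference was 0.17 (SE 0.10, adjusted p = 0.9433) and 0.14 (SE 0.099) without KO Western F. Limma with voom gave 0.20 (SE 0.093, p = 0.03369, adjusted p = 0.773). The edgeR fit without the 4 livers gave 0.22 (SE 0.10, p = 0.04337, adjusted p = 0.8042). The highest liver was KO Western G at 75.2 CPM, and the other values of the groups overlapped. In the related lists, edgeR called 0 genes between the genotypes on Western diet.

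**Figure D4:**
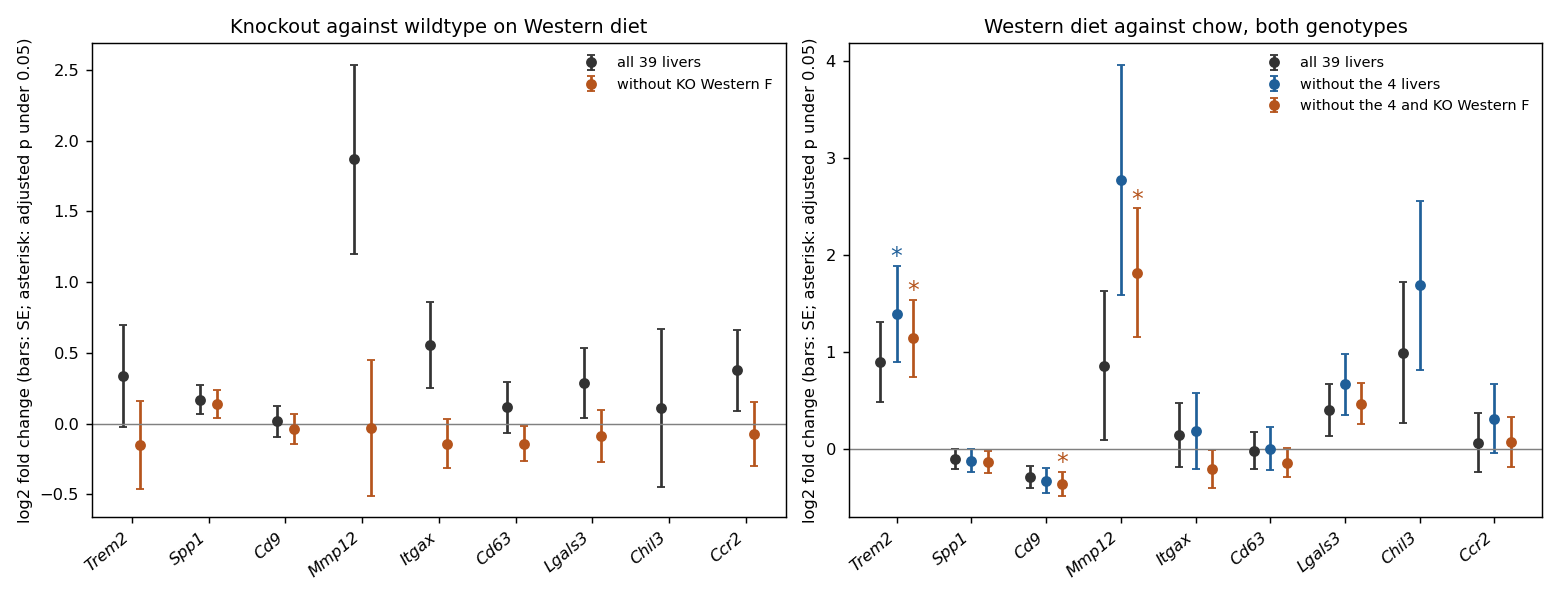
The left panel plots the log2 difference of knockout against wildtype on Western diet for the 9 tested genes, with SE bars, in all 39 livers and without KO Western F, where Mmp12 moves from 1.87 to -0.03. The right panel plots Western diet against chow over both genotypes in all livers, without the 4 livers, and without those and KO Western F. Asterisks mark an adjusted p under 0.05, as for Trem2 at 1.39 without the 4 livers. A missing point is a gene that did not pass the filter on low counts.

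On chow, 0 of 9 members were called between the genotypes, against 0.00654% of genes, with 0 members at an unadjusted p under 0.05 and 0 calls by DESeq2 (0.0131% of genes). In that fit Chil3 had the largest difference, -2.41 log2 units (SE 1.33, adjusted p = 1.0). It was at 1.09, 0.185, 0, 0 and 0.586 CPM in WT chow A to E, and at 0.0629, 0.0679, 0 and 0.108 in KO chow A to D. Only 2 wildtype livers, A and E, were above the knockout range by more than 0.1 CPM. The same 2 livers were highest for Ccr2, at 4.06 and 3.57 CPM against 0.578 to 1.48 in the other WT chow livers. Neutrophil markers, a list with Lcn2, which hepatocytes also make, summed to 164 and 171 CPM in those 2 livers and to 5.61 to 8.19 in the other 3. WT Western G, the highest liver for Chil3, also had the highest sum, 780 CPM, and no test was made of the link. These sums rest mostly on Lcn2, which alone reached 740 CPM in its highest liver other than KO Western F. In WT chow Lcn2 was at 62.7 ± 82.6 CPM, and the neutrophil gene S100a8 at 0.994 ± 1.51 (SD, n = 5). The whole list has 11 genes, of which Ly6g and Mmp8 were at 0 in every KO chow liver.

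Without the 4 livers, which include WT chow A and KO chow D, 0 of 10 members were called between the genotypes on chow, against 0.00647% of genes. Mmp12 then had the largest difference, -4.21 log2 units (SE 2.34, adjusted p = 0.9137), a value that depends on the prior count since the 3 remaining KO chow livers hold 1, 0 and 0 counts. Chil3 was at -2.04 (SE 1.70, adjusted p = 0.9296). Limma with voom on all livers also put Mmp12 first, at -2.45 (SE 1.29, adjusted p = 0.9996), with Chil3 at -0.90 (SE 1.17).

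Western diet was compared with chow within each genotype and over both. In wildtype, 0 of 9 members were called against 1.39% of genes, with 1 member, Cd9, at an unadjusted p under 0.05. In knockout, 0 of 9 were called against 0.00654% of genes, with 0 at an unadjusted p under 0.05. Over both genotypes, 0 of 9 were called against 14.6% of genes, with 2, Cd9 and Trem2, at an unadjusted p under 0.05. DESeq2 called 0 members in each of these, with 3.37%, 1.5% and 16.9% of genes called, but it gave no adjusted p to 2 members in wildtype and 6 in knockout, which therefore could not be called. At an unadjusted p under 0.05 in DESeq2 stood Cd9 in wildtype, Chil3 (p = 0.04155) and Trem2 (p = 0.04214) in knockout, and Cd9 and Trem2 over both. Over both genotypes, limma with voom and the edgeR fit with the replicate block each called 1 member, Cd9, with 23.7% and 13.6% of genes called. The interaction of genotype and diet called 0 members and 0% of all genes, with 0 members at an unadjusted p under 0.05 and 0 calls by DESeq2.

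Trem2 was the member nearest to a rise with diet. WT chow livers A to E had 2.03, 0.801, 0.743, 1.27 and 1.54 CPM, and KO chow livers A to D had 0.566, 0.611, 1.10 and 2.32. The highest chow liver of each genotype, WT chow A and KO chow D, was 1 of the 4 that stood with the other diet. With all livers Trem2 was 0.90 log2 units higher on Western diet (SE 0.41, adjusted p = 0.1342). Without the 4 livers the difference was 1.39 (SE 0.49, adjusted p = 0.02998), where 29.9% of genes were called, 16.0% higher and 13.9% lower. Without KO Western F as well, it was 1.14 (SE 0.39, adjusted p = 0.02574), against 30.8% of genes called. In all livers Trem2 was at 0.78 in limma with voom (SE 0.42, adjusted p = 0.1682). The edgeR fit with the replicate block gave 0.51 (SE 0.41, adjusted p = 0.4067). Trem2 was thus called higher in fits without the 4 livers and not in all 39. This choice of livers was made after their values were seen, and it also raised the share of all genes called.

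Among those livers, 10 of 14 WT Western and 6 of 14 KO Western livers were above the highest of the 7 chow livers, 1.54 CPM. The groups overlapped, and 1 wildtype and 2 knockout livers on Western diet were below the lowest chow liver, 0.566 CPM. Within a genotype the difference was 0.92 log2 units in wildtype (SE 0.62, adjusted p = 0.3862) and 1.87 in knockout (SE 0.76, adjusted p = 0.08515), neither of them called. Without KO Western F as well, these were 0.92 in wildtype (SE 0.50, adjusted p = 0.2546) and 1.37 in knockout (SE 0.61, adjusted p = 0.1147). In that last fit the interaction test did not call Trem2, at 0.45 log2 units (SE 0.77, adjusted p = 0.9992).

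**Figure D5:**
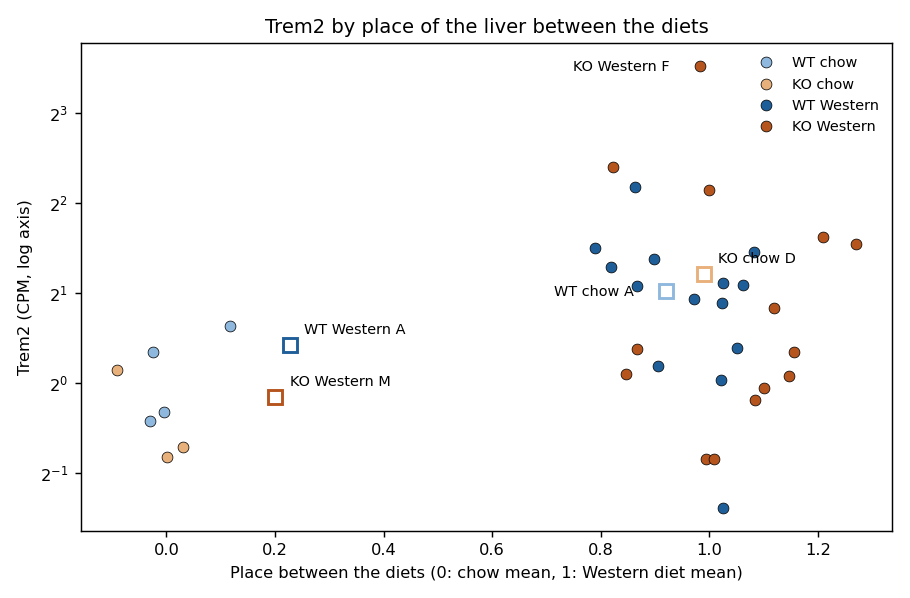
Each point is a liver, placed on the x axis by its level of the 547 diet genes (0 for the chow mean, 1 for the Western diet mean) and on the y axis by Trem2 in CPM on a log axis. Open squares are the 4 livers away from their own diet, such as KO chow D at 0.989 with 2.32 CPM. KO Western F lies at 0.982 with 11.5 CPM.

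Cd9 values lay lower in the Western diet groups, by a difference that depended on the livers used for its call. WT chow livers A to E had 29.4, 28.5, 26.4, 20.0 and 36.1 CPM, and KO chow livers A to D had 24.8, 24.0, 28.6 and 18.9. WT Western livers ranged from 13.1 to 28.2 with a median of 21.99, and KO Western livers from 13.6 to 31.7 with a median of 20.0. Over both genotypes the difference was -0.29 log2 units (SE 0.11, adjusted p = 0.07854), which was not called. Cd9 was called lower without KO Western F (-0.31, SE 0.11, adjusted p = 0.04323, with 14.8% of genes called) and without both it and the 4 livers (-0.36, SE 0.12, adjusted p = 0.02331). It was not called without the 4 livers alone (-0.32, SE 0.13, adjusted p = 0.05369). Leaving out KO chow D alone also brought the call (adjusted p = 0.04022), with 22.6% of genes called. Without the 4 livers, 1 of 14 WT Western and 3 of 14 KO Western livers exceeded the chow median of 26.4 CPM.

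Mmp12 on chow was near 0 in knockout livers A to C, with 1, 0 and 0 counts, and at 23 counts or 1.24 CPM in KO chow D, the liver that stood with Western diet. WT chow livers A to E had 0.652, 0.862, 0.248, 0.352 and 0.746 CPM, so the low values were those of 3 knockout livers. With all livers Mmp12 was not called for diet in knockout (2.14 log2 units, SE 1.16, adjusted p = 0.2981 in edgeR). Without KO Western F alone it was at 0.23 (SE 0.75, adjusted p = 0.8952). Over both genotypes these 2 fits gave 0.86 (SE 0.77, adjusted p = 0.462) and -0.094 (SE 0.49, adjusted p = 0.9146). Without the 4 livers, KO chow D among them, Mmp12 was called higher on Western diet in knockout (adjusted p = 0.04132, with 17.2% of genes called). It was also called without those and KO Western F (adjusted p = 0.01817, with 17.8%). Over both genotypes it was called higher in the latter fit (1.82 log2 units, SE 0.66, adjusted p = 0.03515, with 30.8% of genes called). The fitted fold depends on the prior count when 2 of 3 livers are at 0. As counts, 13 KO Western livers without F and M held 86 and the 3 KO chow livers held 1. At equal library totals that is a ratio of 18.75 (exact 95% counting interval 3.28 to 749). The interval leaves out the spread between livers and the 23 counts of KO chow D, so it does not measure the diet difference. In wildtype the difference without the 4 livers and KO Western F was -0.26 log2 units (SE 0.54, adjusted p = 0.8106). In that fit the interaction did not call Mmp12 after adjustment (4.16 log2 units, SE 1.30, p = 0.0029, adjusted p = 0.9992).

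Lgals3 was 0.40 log2 units higher on Western diet (SE 0.27, adjusted p = 0.3075), and 0.67 without the 4 livers (SE 0.31, adjusted p = 0.1011), which was not called. Its means were 3.94 ± 1.46 CPM in WT chow (SD, n = 5), 4.03 ± 1.25 in KO chow (SD, n = 4), 4.79 ± 1.55 in WT Western (SD, n = 15) and 4.53 ± 1.65 in KO Western livers without F (SD, n = 14). Those groups overlapped. Spp1 differed by -0.095 log2 units between the diets (SE 0.10) and Cd63 by -0.013 (SE 0.19). Itgax and Ccr2 differed by 0.15 (SE 0.33) and 0.07 (SE 0.30), and both were negative without KO Western F, at -0.20 (SE 0.18) and -0.15 (SE 0.23). Chil3, at 0 in 2 of 5 WT chow livers and 1 of 4 KO chow livers, differed by 1.00 (SE 0.73, adjusted p = 0.3596).

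Genes of the same pathways gave the setting for the members. These lists were read over both genotypes, where 7.84% of genes were called higher and 6.77% lower. Of 22 other lipid-associated macrophage genes, all tested, 5 rose on Western diet and 0 fell, with a median of 0.22 log2 units against -0.0019 for all tested genes. They included Lipa, the lysosomal acid lipase (0.45, SE 0.10), Plin2, the lipid droplet coat (0.57, SE 0.16), Lpl, lipoprotein lipase (0.66, SE 0.21), and Ctsb, a lysosomal protease (0.25, SE 0.085). These genes are also made by hepatocytes or other liver cells. Without the 4 livers, where 16.0% of all tested genes were called higher and 13.9% lower, 8 rose, with Cd36, the fatty acid transporter, at 2.13 (SE 0.48), and 1 fell, Fabp5, a fatty acid carrier, at -1.30 (SE 0.39).

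Of 20 recruited monocyte and macrophage genes 18 were tested, and 1, Fn1, rose (0.54, SE 0.14). Of 8 TREM2 signalling and ligand genes 1 rose, Clu, a lipoprotein that TREM2 binds (0.32, SE 0.11), while Apoe, another ligand, was at 0.20 (SE 0.11, adjusted p = 0.2219). Among 8 osteopontin receptors the integrin chain Itgb5 rose (0.40, SE 0.11) and Itga5 fell (-0.41, SE 0.11). Of 8 other tetraspanins Cd81 (0.34, SE 0.086) and Cd151 (0.23, SE 0.070) rose. Of 8 MMP and TIMP genes, of which 6 were tested, Mmp19 rose (0.59, SE 0.15), and of 4 galectins Lgals8 rose (0.36, SE 0.070). The 2 tested ligands of CCR2, Ccl2 and Ccl7, were at -0.19 (SE 0.66) and -0.28 (SE 0.79). Of 4 chitinase family genes the 1 tested, Chil1, was at 1.13 (SE 0.54, adjusted p = 0.1491).

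Markers of resident cells were mixed on the same contrast. Of 12 Kupffer cell markers, Cd5l rose (0.73, SE 0.24) and Id3 fell (-0.70, SE 0.22). Of 10 sinusoidal endothelial markers 3 fell, Clec4g, Ehd3 and Fcgr2b, at -0.36 to -0.45. Of 11 stellate markers 10 were tested and Lrat, the retinol-storing enzyme of quiescent cells, rose (0.59, SE 0.17). Of the neutrophil, dendritic, T and NK cell markers tested, 5, 6 and 5, none was called by edgeR in all 39 livers. Cd79b of 6 B cell markers fell (-0.68, SE 0.24, adjusted p = 0.04984), and 0 of 8 hepatocyte markers were called. Of 7 erythroid markers 5 were tested and 4 rose, with a median of 2.42 log2 units over the 5. They were the globins Hba-a1 (2.48, SE 0.71), Hbb-bs (2.42, SE 0.74) and Hbb-bt (3.12, SE 0.86), and Alas2, the haem synthesis enzyme of red cells (0.32, SE 0.086).

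Without the 4 livers more of these markers were called. Among Kupffer cell markers Folr2 (0.95, SE 0.35) and Adgre1 (0.87, SE 0.29), the latter the F4/80 antigen, rose as well. The dendritic cell marker Zbtb46 fell (-0.31, SE 0.11, adjusted p = 0.02853), and so did 3 of 8 hepatocyte markers, Apoa1 (-0.27, SE 0.092), Ttr (-0.32, SE 0.10) and Ass1 (-0.51, SE 0.15). Of the endothelial markers 4 fell, Gpr182 being added, and of the stellate markers Reln rose and Acta2 fell. Cd79b was no longer called (-0.70, SE 0.28, adjusted p = 0.05145), and the same 4 erythroid markers rose. How far these cell types bear on the levels of the members was not tested.

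Whether the members vary together between livers fed alike was read within each Western diet group, over 90 pairs in all (45 per group, 15 livers each, on log2 CPM). In wildtype 44 of 45 pairs had a positive Pearson r, with a median of 0.301. The pair with an adjusted permutation p under 0.05 was Itgax and Cd63 (r = 0.801, permutation p = 0.00035, adjusted p = 0.01575). Its Spearman rho was 0.761 (adjusted permutation p = 0.0678), and r without the 2 livers farthest from the median of Itgax was 0.715. In knockout 45 of 45 pairs were positive, with a median r of 0.602, and 5 pairs had an adjusted Pearson p under 0.05. Pairs of other genes were not counted in this way, so the shares of positive pairs are not shown to be particular to the members. No pair in knockout had an adjusted Spearman p under 0.05. Without KO Western F the median r in knockout was 0.185 and the median rho 0.178, so the median in knockout rests on that liver, though not every pair does. Gpnmb and Itgax went from r = 0.652 to -0.25 without it, and Gpnmb and Mmp12 from 0.898 to 0.697. Spp1 and Cd63 stayed near their value, at 0.606 and 0.587.

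High Trem2 was not limited to KO Western F. KO Western H (5.28 CPM), WT Western G (4.51) and KO Western G (4.44) came next, above 3.09 in the following liver, KO Western C. In those 3 livers Gpnmb was at 0.0942, 0.251 and 0.634 CPM and Mmp12 at 0.0942, 0.564 and 0.634, within the range of the other livers. Lgals3 was at 6.88, 6.64 and 7.05 CPM, near the top of its range without KO Western F. Trem2 therefore reached intermediate levels where Gpnmb and Mmp12 did not.

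Among genes outside the 10 members, those most like each member were ranked by Pearson r of log2 CPM over the 39 livers after the group means were taken out, as a description. Trem2 was closest to Axl, a receptor for dying cells (r = 0.865, and 0.828 without KO Western F). Lgals3 was closest to Gltp (0.912 and 0.875) and Clec12a (0.891 and 0.872), the latter a lectin receptor of monocytes. Cd63 was closest to Dcn, a proteoglycan of stellate cells and fibroblasts (0.885 and 0.87). Spp1 was closest to Mgp (0.835 and 0.825), with the bile duct marker Epcam among its first 3 (0.741 and 0.748). Cd9 was closest to Procr (0.729 and 0.699) and Ccr2 to Gbp2 (0.806 and 0.735). Itgax and Chil3 had other first genes without KO Western F: Map4k4 (0.771) became Itgb7 (0.706), while the member Cd63 was as close to Itgax over all livers (0.772), and Mpeg1 (0.771) became Icam1 (0.756).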

How the data were processed

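Whole-liver RNA of 39 mice was read in pairs on a NovaSeq 6000 from NEBNext Ultra libraries, per the labels' protocols. The values deposited by the authors are raw counts for each gene; per the submitters' processing notes, STAR 2.7.8a, featureCounts 2.0, FastQC, MultiQC and GRCm39 were used, while annotation release and strand setting are not given in the sources used here. Symbols came from a GRCm38 annotation (52083 of 55416 identifiers, 99.4% of counts).

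Genes passing filterByExpr of edgeR 4.0.16 (minimum count 10, minimum total 15; 15296 genes) were scaled by TMM and fitted in 1 robust quasi-likelihood model of the 4 groups (R 4.3.3), with Benjamini-Hochberg adjustment over all tested genes and a threshold of 0.05. The SE is that implied by the F statistic. CPM is scaled by TMM, and log2 CPM uses a prior count of 2. Fits were tested on simulated data. Permutations used 100000 draws or all splits (scipy 1.17.1, Python 3.11.15). Intervals are exact at 95% and cover counting error only. The numbers of mice in each group given in the labels' protocols match the numbers of libraries, so each library was taken as 1 mouse.

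Alternatives were DESeq2 1.42.0, limma 3.58.1 with voom and sample quality weights, RLE size factors, no filter, the replicate block, the library number, only the groups compared and each library left out. Chosen after seeing the data were fits without WT chow A, KO chow D, WT Western A and KO Western M, the same without KO Western F, and WT Western L and M summed. The members and lists were chosen with earlier results of these data known. All members are named, list genes where called or of the 2 smallest p in a diet contrast, and the 3 genes most like each member. In the text those called and a few of the others are given, and list genes in KO Western F were named after their values were seen. The values of 1 related gene are not reported here.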

Additional observations from a re-analysis of the deposited data

Results flagged for a closer look

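In the 20 sets of chow livers tested for a value far from the rest (10 genes in each genotype), 2 values stood apart. Chance gives about 1 in 20 sets where values are spread normally, a rate that need not hold at counts this low. Mmp12 was at 1.241 CPM in KO chow D, against 0 to 0.0629 in the other 3 KO chow livers, a gap of 0.949 of the group's range. That liver is 1 of the 4 whose diet genes stood with the other diet. Gpnmb was at 0.677 CPM (11 counts) in WT chow B, against 0.141 to 0.266 in the other 4 WT chow livers, a gap of 0.766 of the range. The groups of 15 are too large for this rule, so KO Western F was not judged by it.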

How the results depend on the processing

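With each library left out in turn, the number of members called stayed at 0 in 5 of the 6 comparisons and was 0 to 1 for diet over both genotypes, the 1 being Cd9. Over both genotypes 1 of 9 members, Cd9, was called with limma voom (23.7% of all genes) and with the replicate block (13.6%). Without the 4 libraries 1 of 10 was called, Trem2 (29.9% of all genes). Without those and KO Western F 3 of 8 were called, Trem2, Mmp12 and Cd9 (30.8%). Diet in knockout had 1 call, Mmp12, of 10 members without the 4 libraries (17.2% of all genes) and 1 of 8 without the 5 (17.8%). Replicate letters did not pair the livers (mean r of same-letter livers in the Western diet groups -0.01), and the replicate block moved all calls for diet in wildtype from 212 to 50. RLE size factors, only the groups compared, and summing WT Western L and M left every direction and call as it was.

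Signs turned for differences near 0 or resting on KO Western F, and except where KO Western F was left out the cause was not tested. For knockout against wildtype on Western diet, the log2 values were, without the 4 libraries and KO Western F, Trem2 -0.13, Cd9 -0.068, Mmp12 -0.026, Itgax -0.20, Cd63 -0.14, Lgals3 -0.13 and Ccr2 -0.095. Without the 4 alone Cd9 was -0.0054. The replicate block gave Trem2 -0.049 and Cd63 -0.0099. Limma voom gave Trem2 -0.10, Cd63 -0.018, Chil3 -0.14 and Ccr2 -0.0036. DESeq2, which replaced both counts in KO Western F as outlying, gave Mmp12 -0.026 and Itgax -0.13. The library number as covariate gave Chil3 -0.62 and Ccr2 -0.062. Leaving out 1 library gave Trem2 -0.15 to 0.47, Cd9 -0.041 to 0.0525, Mmp12 -0.02976 to 2.01, Itgax -0.14 to 0.63, Cd63 -0.14 to 0.16, Lgals3 -0.088 to 0.34 and Ccr2 -0.076 to 0.45.

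For diet over both genotypes, the replicate block gave Itgax -0.35, Lgals3 -0.066 and Ccr2 -0.21. Limma voom gave Itgax -0.13, and DESeq2 gave Itgax -0.20 and Mmp12 -0.056. Itgax was -0.20 without the 4 libraries and KO Western F. Cd63 was 0.0015 with no filter, 0.025 with the library number and 0.0051 without the 4. Leaving out 1 library gave Mmp12 -0.094 to 2.64, Itgax -0.20 to 0.29, Cd63 -0.14 to 0.038 and Ccr2 -0.15 to 0.25. Depth limits Gpnmb, Mmp12 and Chil3 most, with medians of 0 to 9 counts per library in each group.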
